A study of Mus musculus with 12 samples.

Results

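Immediate early genes are transcribed within minutes of a stimulus, with no need for new protein, and many of their mRNAs decay quickly. The 10 genes described here were fixed by a list of names and not by a rule on their values. That list was set with earlier results of these data known, and it holds 10 of the 49315 genes in the count table. Fos, Fosb, Jun and Junb encode subunits of AP-1, a transcription factor made of paired Fos and Jun family proteins. Egr1 and Nr4a1 encode a zinc finger factor and an orphan nuclear receptor, and Ier2 encodes a small nuclear protein. Dusp1 encodes a phosphatase that removes the activating phosphates from MAP kinases, and Zfp36 a protein that binds AU-rich elements and speeds mRNA decay, so both restrain the signals that induce them. Ccn1, listed under the older name Cyr61 in some annotations, encodes a secreted protein of the matrix.

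RNA came from epididymal white adipose tissue of male mice fed a high fat diet (HFD, 60% fat) for 12 weeks. There were 3 mice in each of 4 groups and 1 library per mouse. Flox mice carried the floxed and intact miR-181a2b2 locus (miR-181a2b2flox/flox), and KO mice lacked it in the whole body (miR-181a2b2-/-), which removes the genes Mir181a-2 and Mir181b-2. Mice of both genotypes were injected i.p. each week with methotrexate (MTX, 1 mg/kg), an antifolate, or with vehicle. The groups were flox vehicle (replicates 1, 3 and 4), KO vehicle (1, 2 and 3), flox MTX (1, 2 and 4) and KO MTX (2, 3 and 4), and the ages of these mice are not given in the sources used here. Libraries held 19495310 to 23976469 counts, and levels are given as CPM, the counts of a gene over the TMM-scaled size of its library. Intervals and adjusted p-values come from edgeR's quasi-likelihood test on the counts of all 12 libraries, with Benjamini-Hochberg adjustment over 18702 genes. All 10 immediate early genes passed the filter on low counts. The limits for a call were an adjusted p under 0.1 together with a 1.5-fold change or more.

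The labels could be checked little by the deleted locus, because Mir181b-2 had 0 counts in every library and Mir181a-2 had 2 counts in flox MTX replicate 4 and 0 elsewhere. The adipocyte markers were present in every library, with a sum of 17555 to 67517 CPM over 8 genes. The flox vehicle libraries also held RNA of the epididymis, with 4504, 11709 and 1460 CPM summed over 12 markers in replicates 1, 3 and 4, against 479 CPM in flox MTX replicate 1 and 1.79 to 24.2 CPM in the other 8 libraries. Of these 12 markers, Lcn5 was at 0 in every KO MTX library. The 6 testis germ cell markers summed to 145 to 495 CPM in the flox vehicle libraries and to 0.217 to 8.57 CPM in the rest. The flox vehicle libraries thus stood apart in tissue makeup, and in whole tissue a change in the number of cells of a type and a change of RNA per cell cannot be told apart.

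The 5′ ends of the genes are shown because the genes moved together in the comparisons below. The cAMP response element and the TATA box are marked as 2 of the elements known from such promoters. RefSeq promoters of GRCm38.p6 matched 8 of the 10 genes, with Egr1 and Ier2 not in the table. In the 250 bases before the RefSeq start, the core of the cAMP response element (TGACG on either strand) was found in 6 of 8 genes, against 17.8% of 32851 promoters. The palindrome TGACGTCA, which holds this core on both strands, was found in Dusp1 alone of the 8, against 1.55% of promoters. The TATA box (TATAAA) was found in Fos and Ccn1, against 12.4% of promoters, and the AP-1 site TGANTCA in 0 of 8, against 6.75%. The CArG box, bound by SRF, was found in Zfp36 alone (1.47% of promoters), GGGCGG of the Sp1 site in 7 of 8 (32.7%), and GCGNGGGCG of the Egr site, which can overlap GGGCGG, in 3 of 8 (4.70%). Sites farther upstream than these 250 bases were not searched, so a gene without a match here, as for the CArG box, may hold one elsewhere. These matches are a description of letters and not evidence of binding. The bases upstream of the start follow for the 6 genes with TGACG, cut where the stretch runs into an exon of the gene in GENCODE (for Fosb and Dusp1), with TGACG or its complement CGTCA and TATAAA in capitals, for chr12:85473730-85473889 (+), chr7:19310052-19310205 (-), chr8:84978749-84978908 (-), chr15:101266686-101266845 (+), chr17:26508520-26508632 (-) and chr3:145649986-145650145 (-) in this order. For Nr4a1 and Dusp1 the annotated gene begins farther upstream, so these stretches lie inside its span.
Fos: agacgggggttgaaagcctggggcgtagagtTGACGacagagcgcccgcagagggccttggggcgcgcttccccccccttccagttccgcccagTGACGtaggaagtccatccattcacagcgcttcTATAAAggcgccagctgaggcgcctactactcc
Fosb: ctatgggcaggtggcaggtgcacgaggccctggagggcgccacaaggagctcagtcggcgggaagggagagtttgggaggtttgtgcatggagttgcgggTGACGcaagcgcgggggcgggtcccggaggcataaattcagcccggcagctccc
Junb: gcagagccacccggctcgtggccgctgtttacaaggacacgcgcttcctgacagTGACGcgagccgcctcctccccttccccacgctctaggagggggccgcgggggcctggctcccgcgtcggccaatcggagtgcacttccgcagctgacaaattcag
Nr4a1: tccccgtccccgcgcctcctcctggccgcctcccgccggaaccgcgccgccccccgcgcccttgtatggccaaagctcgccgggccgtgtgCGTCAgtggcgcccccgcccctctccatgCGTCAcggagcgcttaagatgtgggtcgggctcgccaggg
Dusp1: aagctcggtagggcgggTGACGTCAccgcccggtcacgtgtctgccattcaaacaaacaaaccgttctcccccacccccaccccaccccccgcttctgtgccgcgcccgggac
Ccn1: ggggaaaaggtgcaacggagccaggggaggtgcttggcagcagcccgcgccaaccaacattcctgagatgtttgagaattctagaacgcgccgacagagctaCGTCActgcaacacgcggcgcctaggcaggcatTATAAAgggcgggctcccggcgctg

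To ask whether immediate early genes differed between the genotypes without drug, KO vehicle mice were compared with flox vehicle mice. All 10 genes were higher in the KO mice and were called, where 13.9% of all genes tested were called higher. The 3 KO libraries lay above the 3 flox libraries for every one of the 10 genes, against 22.8% of all genes. The median log2 fold change over the 10 genes was 1.67 (0.86 to 3.45), beside -0.06 over all genes tested. Exact permutation tests of 3 mice against 3, two-sided, gave 0.1 for each gene, which is the smallest p this design allows. The 3 flox vehicle mice serve this comparison and that of MTX with vehicle in flox mice.

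**Figure D1:**
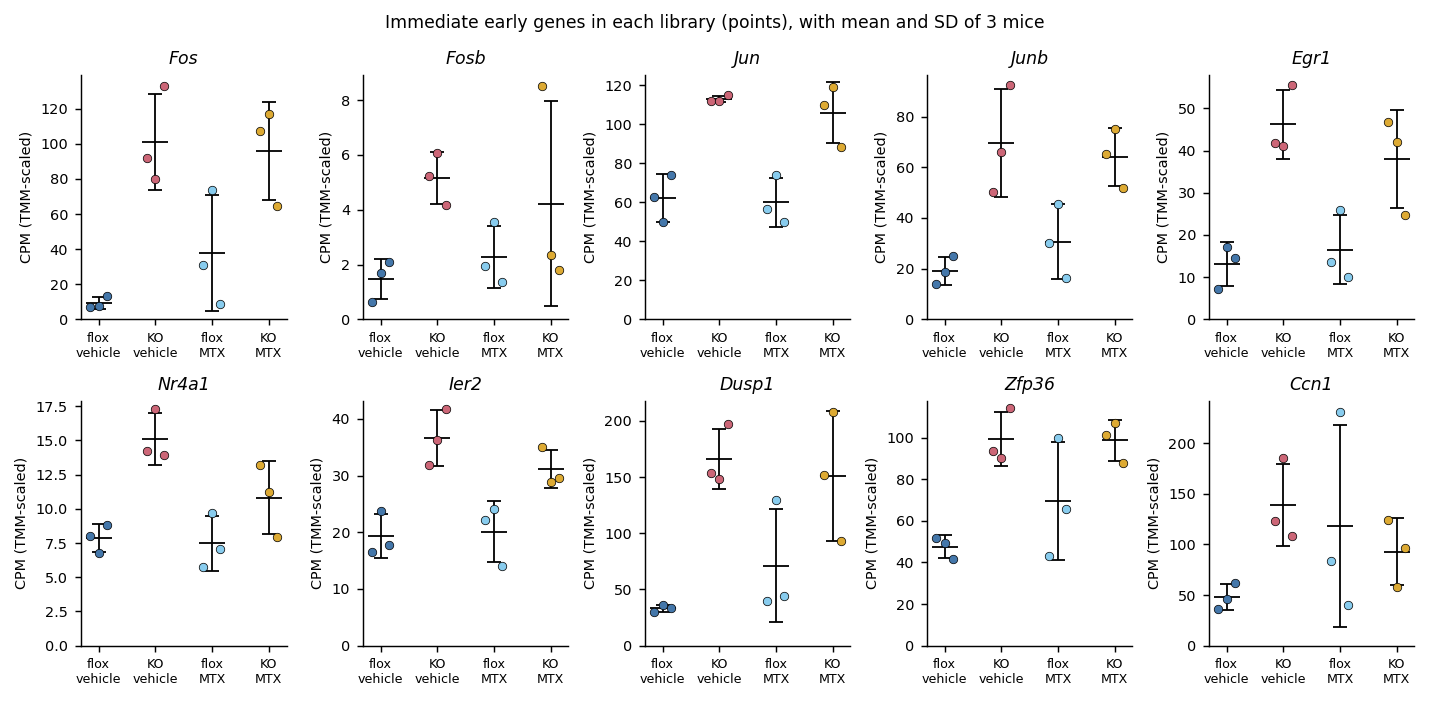
Each panel plots 1 immediate early gene, with TMM-scaled CPM on a linear axis from 0, 1 point per library and the 4 groups on the horizontal axis, and black bars give the mean and SD of 3 mice. In all 10 panels the KO vehicle points lie above the flox vehicle points, and in flox MTX 1 library, replicate 2, is the highest of its group in every panel.

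Among the AP-1 subunits, Fos (ENSMUSG00000021250, chr12:85473890-85477273, + strand) had the widest difference. In flox vehicle replicates 1, 3 and 4 the level of Fos was 7.33, 7.39 and 13.2 CPM, and in KO vehicle replicates 1, 2 and 3 it was 91.8, 79.9 and 133 CPM. The lowest KO library lay far above the highest flox library, and the groups were 9.31 ± 3.37 and 101 ± 27.6 CPM (mean ± SD, n = 3). The log2 fold change was 3.45 (SE 0.63, 95% interval 2.07 to 4.83, edgeR adjusted p = 0.004), or 10.9-fold. Fosb (ENSMUSG00000003545, chr7:19302696-19310051, - strand), which pairs with Jun proteins as Fos does, was far less abundant. Its levels were 0.651, 1.69 and 2.08 CPM in flox vehicle and 5.24, 6.06 and 4.17 CPM in KO vehicle, with no overlap, and it rose by 1.80 on the log2 scale (SE 0.63, 0.43 to 3.18, edgeR adjusted p = 0.0508). Leaving out flox vehicle replicate 1 ended the Fosb call (edgeR adjusted p = 0.147), as did leaving out KO vehicle replicate 2 (0.114) or adding the replicate number of the labels as a block (0.109).

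The Jun family partners also rose. Jun (ENSMUSG00000052684, chr4:95049034-95052222, - strand) was at 62.7, 49.8 and 74.1 CPM in flox vehicle and at 112, 112 and 115 CPM in KO vehicle, where the 3 mice were closest together of all 10 genes relative to the mean (CV 1.53%). Its log2 fold change, 0.86 (SE 0.19, 0.46 to 1.27, edgeR adjusted p = 0.00653), was the smallest of the 10. Junb (ENSMUSG00000052837, chr8:84974484-84978718, - strand) was at 13.8, 18.6 and 24.8 CPM in flox vehicle and at 50.3, 66 and 92.6 CPM in KO vehicle. The Junb groups were well apart, and the log2 fold change was 1.87 (SE 0.36, 1.07 to 2.66, edgeR adjusted p = 0.00471). Jun is overlapped by the antisense gene Junos, and Junb by Prdx2 on the other strand, and since the strand setting of the counting is not stated, reads of such partners cannot be told apart.

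The other nuclear factors followed the same direction. Egr1 (ENSMUSG00000038418) was at 7.29, 17.2 and 14.6 CPM in flox vehicle and at 41.7, 41.2 and 55.6 CPM in KO vehicle, with a log2 fold change of 1.82 (SE 0.39, 0.95 to 2.69, edgeR adjusted p = 0.0067). Nr4a1 (ENSMUSG00000023034, chr15:101254269-101274795, + strand) was at 8.03, 6.77 and 8.82 CPM in flox vehicle and at 14.2, 17.3 and 13.9 CPM in KO vehicle, with a log2 fold change of 0.94 (SE 0.25, 0.40 to 1.48, edgeR adjusted p = 0.0151). Ier2 (ENSMUSG00000053560, chr8:84661331-84662852, - strand) was at 16.5, 23.7 and 17.8 CPM in flox vehicle and at 31.8, 36.2 and 41.8 CPM in KO vehicle, with a log2 fold change of 0.92 (SE 0.21, 0.45 to 1.39, edgeR adjusted p = 0.00901). In these 3 genes no flox library reached the lowest KO library. The step for Egr1 was thus 3.54-fold, and those for Nr4a1 and Ier2 were 1.92-fold and 1.89-fold.

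The feedback genes Dusp1 and Zfp36 rose with the factors. Dusp1 (ENSMUSG00000024190, chr17:26505590-26562128, - strand) was tight in flox vehicle, at 30.2, 36 and 33.5 CPM, and stood at 154, 148 and 197 CPM in KO vehicle. Every KO vehicle library was thus several times above every flox vehicle library, with a log2 fold change of 2.32 (SE 0.43, 1.37 to 3.27, edgeR adjusted p = 0.0043). Zfp36 (ENSMUSG00000044786, chr7:28376784-28380253, - strand) was at 51.8, 49.4 and 41.5 CPM in flox vehicle and at 93.6, 90.2 and 114 CPM in KO vehicle, again without overlap, with a log2 fold change of 1.06 (SE 0.25, 0.51 to 1.61, edgeR adjusted p = 0.00946). The annotated span of Dusp1 holds 2 further genes on its strand and Gm8225 and Ergic1 on the other, and Zfp36 is overlapped by the antisense gene Gm44710. Ccn1 (ENSMUSG00000028195, chr3:145646976-145649981, - strand), the secreted matrix protein, was at 35.8, 46.5 and 61.6 CPM in flox vehicle and at 123, 185 and 108 CPM in KO vehicle, with no overlap. It rose by 1.53 on the log2 scale (SE 0.53, 0.36 to 2.70, edgeR adjusted p = 0.0512), and dropping KO vehicle replicate 2 (edgeR adjusted p = 0.14) or replicate 1 or 3 of flox vehicle (0.147 and 0.122) ended this call.

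These differences were also measured with fewer libraries, in 2 alternatives chosen after seeing the data. With flox vehicle replicate 4, which held the least epididymis RNA of its group, as the only flox vehicle library, all 10 log2 fold changes stayed above 0 (0.62 to 2.95), but 0 of the 10 were called by edgeR (adjusted p 0.101 to 0.423), where 7.07% of genes were called. The spread of that lone library was assumed to be that of the other groups. Without flox vehicle replicate 3 and flox MTX replicate 1, 8 of 10 were called, where 26.0% of all genes were called in either direction, and Fosb and Ccn1 were not.

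Markers of other cell types moved with the same comparison. All 8 macrophage markers were called higher in KO vehicle than in flox vehicle, and their sum was 472 to 989 CPM in flox vehicle and 3493 to 5618 CPM in KO vehicle. Of 7 fibroblast and stromal progenitor markers, 6 were called higher and 1 lower (1300 to 2619 against 5338 to 8519 CPM), and of 7 endothelial markers 6 were called higher (266 to 395 against 583 to 870 CPM). Of 8 adipocyte markers, 1 was called lower (21099 to 45857 against 27604 to 41791 CPM). None of the macrophage, fibroblast, endothelial or adipocyte markers was at 0 in all libraries of a group. Their part in the rise of the immediate early genes was not tested, and neither was that of the epididymis RNA.

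**Figure D2:**
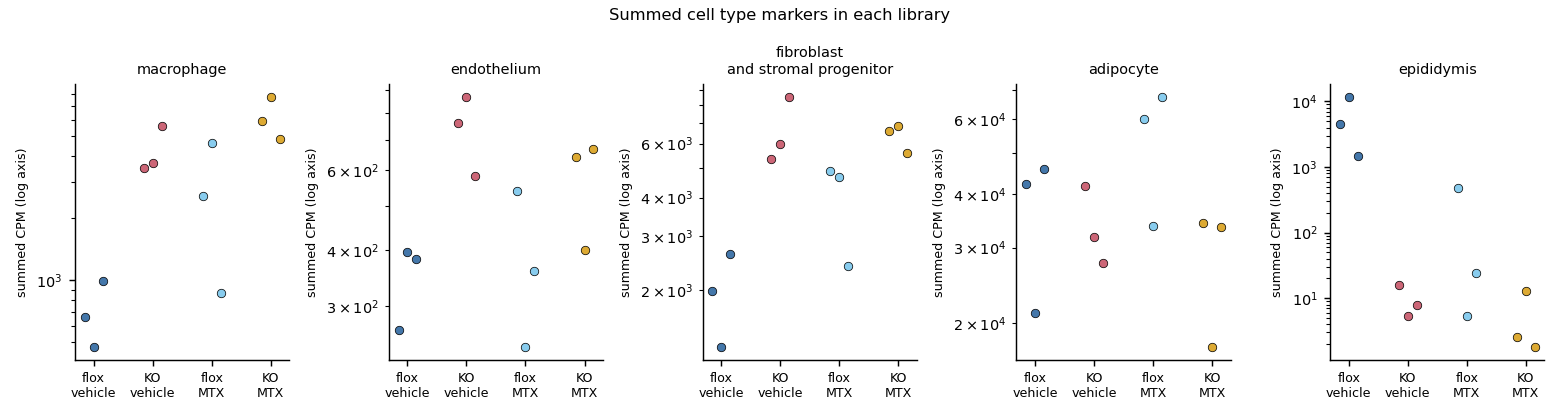
Each panel plots the summed CPM of 1 marker list on a log axis, with 1 point per library in the 4 groups. Macrophage markers run from 472 to 989 CPM in flox vehicle and from 4865 to 7779 CPM in KO MTX, and epididymis markers from 1460 to 11709 CPM in flox vehicle, above all other libraries.

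The same question was put under the drug, comparing KO MTX with flox MTX mice. By edgeR, 0 of the 10 genes were called, and 0.00% of all genes were. At an unadjusted p below 0.05, 6 of the 10 were higher in KO MTX (Fos, Jun, Junb, Egr1, Ier2 and Dusp1), against 11.5% of all genes, and DESeq2 called the same 6, with 14.8% of all genes called in either direction. The log2 fold change was above 0 for 9 of the 10, with a median of 0.85 beside -0.05 over all genes tested. The KO MTX libraries lay above all flox MTX libraries for 3 genes, Jun, Junb and Ier2, where this held for 14.7% of all genes.

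Jun had the lowest p of the 10 under the drug. Its levels were 56.4, 73.9 and 49.8 CPM in replicates 1, 2 and 4 of flox MTX and 110, 119 and 88.2 CPM in replicates 2, 3 and 4 of KO MTX. Its log2 fold change of 0.82 (SE 0.19, 0.41 to 1.23, edgeR adjusted p = 0.104) was close to the 0.86 under vehicle and just missed the limit, which Jun passed when genes with low counts were kept (edgeR adjusted p = 0.0797). Junb was at 30.3, 45.6 and 16.2 CPM in flox MTX and at 65.3, 74.9 and 51.7 CPM in KO MTX, with a log2 fold change of 1.06 (edgeR adjusted p = 0.124). Ier2 was at 22.2, 24.1 and 14.1 CPM in flox MTX and at 35, 28.9 and 29.6 CPM in KO MTX, with a log2 fold change of 0.63 (edgeR adjusted p = 0.126). In these 3 genes the groups touched nowhere, and the smallest exact permutation p, 0.1, was reached.

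In the other genes flox MTX replicate 2 reached or passed the lowest KO library. Fos was at 31.1, 73.6 and 8.57 CPM in flox MTX and at 107, 117 and 64.3 CPM in KO MTX, with a log2 fold change of 1.34 (SE 0.58, 0.07 to 2.61, edgeR adjusted p = 0.185). Egr1 was at 13.6, 25.8 and 10.1 CPM in flox MTX and at 46.8, 42.1 and 24.7 CPM in KO MTX, with a log2 fold change of 1.20 (edgeR adjusted p = 0.12). Dusp1 was at 40.2, 130 and 44 CPM in flox MTX and at 152, 208 and 93.2 CPM in KO MTX, with a log2 fold change of 1.08 (edgeR adjusted p = 0.152). For each of Fos, Egr1 and Dusp1, only flox MTX replicate 2 and KO MTX replicate 4 crossed.

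The remaining 4 genes differed less. Nr4a1 was at 5.72, 9.68 and 7.07 CPM in flox MTX and at 13.2, 11.2 and 7.91 CPM in KO MTX (log2 fold change 0.52, edgeR adjusted p = 0.216). Zfp36 was at 43.3, 99.9 and 65.7 CPM in flox MTX and at 101, 107 and 87.8 CPM in KO MTX (log2 fold change 0.50, edgeR adjusted p = 0.236). Fosb was at 1.94, 3.54 and 1.38 CPM in flox MTX and at 8.53, 2.34 and 1.79 CPM in KO MTX, so that KO MTX replicate 2 alone stood high (log2 fold change 0.88, edgeR adjusted p = 0.393), and without it the log2 fold change was -0.15. Ccn1 was the single gene below 0, at 83.2, 231 and 40.6 CPM in flox MTX and at 124, 57.9 and 96.1 CPM in KO MTX (log2 fold change -0.35, 95% interval -1.49 to 0.79, edgeR adjusted p = 0.706).

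The count under the drug moved with the libraries and the filter, and the lowest adjusted p over all genes was 0.104, just above the limit. Without flox MTX replicate 2, edgeR called 8 of the 10 genes higher in KO MTX, where 20.8% of all genes were called in either direction. Fos then had a log2 fold change of 2.27 (edgeR adjusted p = 0.0295), Dusp1 one of 1.84 (0.0277) and Jun one of 1.00 (0.0277), while Fosb and Ccn1 were not called and Ccn1 turned to 0.58. The macrophage sum was 4648 CPM in flox MTX replicate 2, against 2577 and 864 CPM in replicates 1 and 4 and 4865 to 7779 CPM in the KO MTX libraries. Of the 8 macrophage markers, 0 were called between KO MTX and flox MTX by edgeR and 6 were higher at an unadjusted p below 0.05. Their part in the differences of the immediate early genes was not tested.

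**Figure D3:**
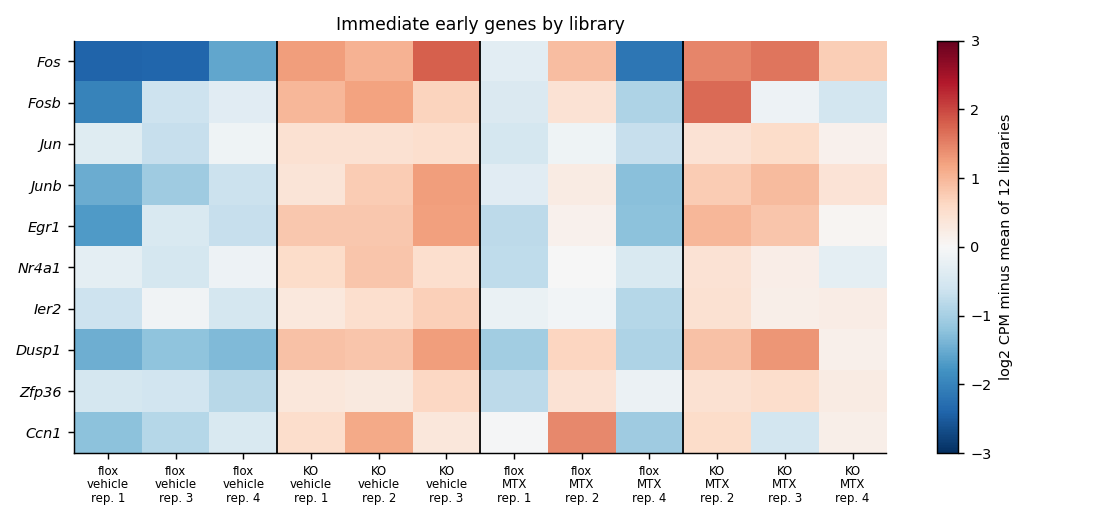
Rows are the 10 immediate early genes and columns the 12 libraries in their 4 groups. Colours give log2 CPM minus the mean of that gene over the 12 libraries, from blue (lower) to red (higher). Flox MTX replicate 2 is the highest of its group in all 10 rows, and flox MTX replicate 4 the lowest of its group in 7 rows.

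Whether MTX moved these genes in flox mice was asked by comparing flox MTX with flox vehicle mice. Fos and Dusp1 were called higher with MTX, 2 of the 10 genes, where 8.09% of all genes were called higher. Fos was 9.31 ± 3.37 CPM with vehicle and 37.8 ± 33.0 CPM with MTX (mean ± SD, n = 3), with a log2 fold change of 2.02 (SE 0.60, 0.71 to 3.34, edgeR adjusted p = 0.0377). The SD with MTX was nearly as large as the mean, since flox MTX replicate 4 (8.57 CPM) lay within the vehicle range and replicates 1 and 2 (31.1 and 73.6 CPM) above it. Dusp1 was 33.2 ± 2.86 CPM with vehicle and 71.3 ± 50.6 CPM with MTX, with a log2 fold change of 1.10 (SE 0.42, 0.18 to 2.02, edgeR adjusted p = 0.0877). Dusp1 was the only one of the 10 whose MTX libraries all lay above the vehicle libraries, which held for 10.9% of all genes, but 2 of them (40.2 and 44 CPM) were close to the highest vehicle library (36 CPM).

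Both calls rested on flox MTX replicate 2 and on single vehicle libraries. Without flox MTX replicate 2 the log2 fold change was 1.11 for Fos (edgeR adjusted p = 0.127) and 0.35 for Dusp1 (0.373). Without flox vehicle replicate 1 it was 1.88 for Fos (edgeR adjusted p = 0.11) and 1.04 for Dusp1 (0.194), and without flox vehicle replicate 3 it was 1.88 for Fos (0.142) and 1.16 for Dusp1 (0.191). With the replicate number as a block, 0 of the 10 genes were called (Fos 1.61, edgeR adjusted p = 0.164), where 14.8% of all genes were called in either direction. Dropping flox vehicle replicate 4 (edgeR adjusted p = 0.125), replicate 1 or 2 of KO vehicle (0.109 and 0.104) or KO MTX replicate 2 (0.105) also ended the call of Dusp1.

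The other 8 genes were not called with MTX in flox mice. Ccn1 had a log2 fold change of 1.30 (95% interval 0.14 to 2.47, edgeR adjusted p = 0.107), with 231 CPM in flox MTX replicate 2 and 40.6 CPM, within the vehicle range, in replicate 4. Junb had 0.69 (-0.09 to 1.47, edgeR adjusted p = 0.195), Zfp36 0.55 (0.01 to 1.09, edgeR adjusted p = 0.142), Fosb 0.64 (-0.73 to 2.01, edgeR adjusted p = 0.492) and Egr1 0.34 (-0.51 to 1.19, edgeR adjusted p = 0.562). Jun, Nr4a1 and Ier2 lay near 0, at -0.05 (-0.46 to 0.35), -0.07 (-0.61 to 0.47) and 0.06 (-0.41 to 0.53). Library-size scaling in place of TMM moved the median of all genes in this comparison from 0.05 to -0.15, and Ier2 to -0.13. All 8 macrophage markers were called higher with MTX in flox mice (472 to 989 against 864 to 4648 CPM), as were 4 of 7 fibroblast markers and 0 of 7 endothelial markers. Called higher too were 5 of 6 mesothelial markers (86.5 to 167 against 222 to 455 CPM) and 2 of 4 B cell markers. So were 4 of 5 T cell markers (4.41 to 9.03 against 10.3 to 49.4 CPM). Of the neutrophil markers, 3 of 3 tested were called higher (6.07 to 16.9 against 28.9 to 73.3 CPM). Called lower were 6 of 6 testis germ cell markers (145 to 495 against 0.5 to 0.709 CPM) and 5 of 9 epididymis markers tested. So were 2 of 6 smooth muscle and pericyte markers and 1 of 4 skeletal muscle markers tested, and 0 of these lists' markers were called higher. The part of all these markers in the Fos and Dusp1 differences was not tested.

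In KO mice, MTX against vehicle gave 0 called genes among the 10 by edgeR, with 0.00% of all genes called, and 0 by DESeq2. At an unadjusted p below 0.05 there were also 0 of the 10, against 4.56% of all genes lower. The log2 fold change was at or below -0.01 for all 10, from -0.58 (Ccn1, 95% interval -1.72 to 0.57) to -0.01 (Zfp36, -0.55 to 0.53), with a median of -0.19 beside -0.01 over all genes. Nr4a1 was the gene whose groups did not overlap, at 14.2, 17.3 and 13.9 CPM with vehicle and 13.2, 11.2 and 7.91 CPM with MTX (log2 fold change -0.49, -1.02 to 0.05, edgeR adjusted p = 0.661), where 9.55% of all genes were lower without overlap. Fos was 101 ± 27.6 CPM with vehicle and 96.0 ± 27.9 CPM with MTX, and Dusp1 166 ± 27.0 and 151 ± 57.5 CPM (mean ± SD, n = 3), so these differences were within the spread between mice. Leaving out 1 library turned the sign for 6 of the 10 genes (Fos, Fosb, Jun, Junb, Dusp1 and Zfp36).

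**Figure D4:**
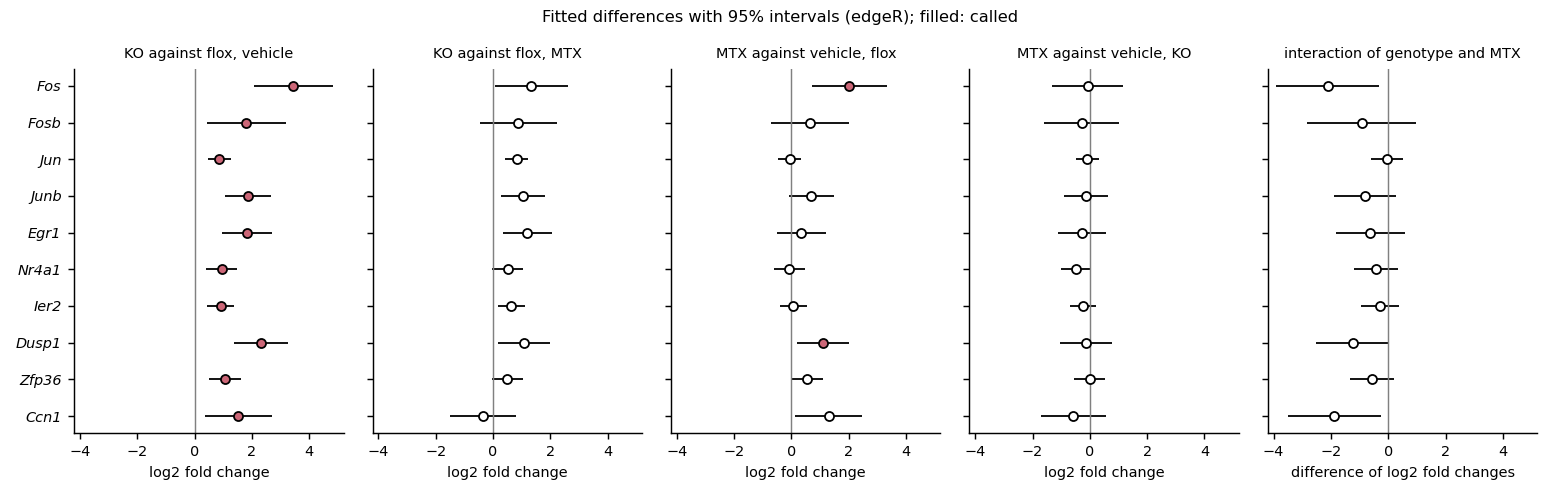
Each panel plots 1 comparison, with the log2 fold change of the 10 genes from edgeR as points and their 95% intervals as lines, the last panel giving the interaction, and filled points were called. All 10 points are filled for KO against flox under vehicle, 2 (Fos and Dusp1) for MTX against vehicle in flox mice, and none in the other 3 panels.

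Whether MTX acted differently in the genotypes was tested by the interaction, which is the log2 fold change with MTX in KO mice minus that in flox mice. By edgeR 0 of the 10 genes were called, where 0.989% of all genes were, and by DESeq2 also 0 (6.67% of all genes). All 10 values were below 0, with a median of -0.72 beside -0.05 over all genes, but the 10 values share their libraries and Jun, at -0.05 (-0.62 to 0.53), changed sign under several settings. Fos (-2.10, 95% interval -3.90 to -0.31, edgeR adjusted p = 0.267) and Ccn1 (-1.88, -3.51 to -0.25, edgeR adjusted p = 0.272) had an unadjusted p below 0.05, against 5.45% of all genes lower at that limit. Dusp1 was at -1.24 (-2.53 to 0.04, edgeR adjusted p = 0.349). Without flox MTX replicate 2 the value was -1.19 for Fos, -0.96 for Ccn1 and -0.49 for Dusp1. For none of the 10 genes did the test show that MTX acted differently in KO than in flox mice.

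Levels were compared between genes per kilobase of exon. The mean over the 12 libraries was 49.2 CPM per kb for Ccn1 (SD 29.7), 31.9 for Dusp1 (20.3), 26.7 for Jun (8.57), 26.0 for Fos (19.6), 22.7 for Zfp36 (7.69), 19.9 for Junb (11.1) and 17.6 for Ier2 (5.62). Egr1 followed at 6.33 CPM per kb (3.65), Nr4a1 at 2.94 (1.03) and Fosb at 0.526 (0.372). From Ccn1 down to Ier2 each neighbour in this order lay within the SD of the other, while Fosb had the lowest mean. The spread itself differed by gene. The highest library was 18.1 times the lowest for Fos and 13.1 times for Fosb, but 2.39 times for Jun and 2.75 times for Zfp36. In flox vehicle, Fos held 3.96 ± 1.43 CPM per kb and Jun 19.5 ± 3.81, whereas in KO vehicle Fos held 43.1 ± 11.7 and Jun 35.5 ± 0.544 (mean ± SD, n = 3), so the means stood in the opposite order, although the difference in KO vehicle was within the SD of Fos and KO vehicle replicate 2 had less Fos (34 CPM per kb) than Jun (35.3).

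The 10 genes varied together across mice. Over the 12 libraries, the correlation of log2 CPM between members had a median of 0.81 over 45 pairs, from 0.57 (Jun and Ccn1) to 0.98 (Fos and Junb). With the group means subtracted, which leaves the variation between mice of 1 group, the median was 0.58, from 0.09 (Ier2 and Nr4a1) to 0.91 (Fos and Junb). These values describe 12 libraries that share depth and tissue makeup and carry no test. The mean of the members' z-scores ran from -1.30 in flox vehicle replicate 1 to 1.06 in KO vehicle replicate 3, and flox MTX replicate 2 (0.40) was above every other flox library and above KO MTX replicate 4 (0.13). Replicates 1 and 4 of flox MTX were at -0.73 and -1.13. KO MTX replicate 4 was the lowest of its group for 8 of the 10 genes.

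Of 15506 further genes with a mean of at least 1 CPM, those most like the mean z-score over the 12 libraries were Mapk7 (Pearson's r 0.968), which encodes the MAP kinase ERK5, Mxra7 (0.968), Trim46 (0.967), Apbb2 (0.964) and Plekhg2 (0.958). With group means subtracted they were Neurl3 (r 0.965), Mxra7 (0.963), Gm37033 (0.958), Zfp704 (0.956) and Gm37274 (0.953), so Mxra7 was in both lists. They are the highest of many and are given as a description.

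Genes related to the 10 by family or pathway were described next, from lists written with earlier results of these data known. Of all genes tested, 13.9% were called higher and 17.8% lower in KO vehicle than in flox vehicle. With MTX in flox mice these shares were 8.09% and 16.1%, and every list below is to be read beside them. Of 11 other AP-1 genes, 9 were called higher in KO vehicle than in flox vehicle and 0 lower, with a median log2 fold change of 1.08. Jdp2, a repressor of AP-1, was at 12.8 ± 0.517 CPM in flox vehicle and 30.7 ± 3.45 CPM in KO vehicle (mean ± SD, n = 3), a log2 fold change of 1.27 (SE 0.13, edgeR adjusted p = 0.00271). Fosl2 (1.08, edgeR adjusted p = 0.00284) and Batf2 (1.73, edgeR adjusted p = 0.00457) rose too. In MTX against vehicle of flox mice, 5 of these 11 were called higher and 0 lower, and Jdp2 was the only gene of all 7 related lists called in the interaction (-0.80, SE 0.18, edgeR adjusted p = 0.097). With the replicate number as a block 0 of all genes were called in the interaction by edgeR, so this call was lost.

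Of 16 other early factors tested, 10 were called higher in KO vehicle and 1 lower, with a median of 1.16. Klf4 was at 41.1 ± 6.46 CPM in flox vehicle and 123 ± 10.5 CPM in KO vehicle (log2 fold change 1.58, edgeR adjusted p = 0.00276). Npas4, a factor best known from neurons, was low in flox vehicle (0.694 to 1.62 CPM) and at 8.46 to 16.9 CPM in KO vehicle (log2 fold change 3.43, edgeR adjusted p = 0.00295), and Ier5 rose by 1.55 (edgeR adjusted p = 0.00483). Nr4a2, of the same receptor family as Nr4a1, went the other way and was called lower, at 5.09 ± 1.21 CPM in flox vehicle and 2.33 ± 0.888 CPM in KO vehicle (log2 fold change -1.12, edgeR adjusted p = 0.0339), and it was named after its value was seen, as the single factor called lower. With MTX in flox mice 5 of the 16 were called higher and 0 lower.

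Of 23 further feedback genes, which encode phosphatases, Sprouty proteins, decay factors and other inhibitors of signalling, 10 were called higher in KO vehicle and 2 lower, with a median of 0.77. Rgs2, which shortens G protein signals, was at 17.5 ± 3.70 and 75.4 ± 17.4 CPM (log2 fold change 2.11, edgeR adjusted p = 0.00284), and Spred1, an inhibitor of Ras signalling, rose by 1.32 (edgeR adjusted p = 0.004). Dusp4, a nuclear MAP kinase phosphatase like Dusp1, fell from 19.7 ± 5.05 CPM to 5.57 ± 0.277 CPM (log2 fold change -1.82, edgeR adjusted p = 0.00281). The second gene called lower was Spry4 (-0.89, edgeR adjusted p = 0.00469), named after its value was seen. With MTX in flox mice 6 of the 23 were called higher and 1 lower.

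Among 25 kinases and factors that act upstream of immediate early genes, 6 were called higher in KO vehicle and 3 lower. Of all genes 13.9% were called higher and 17.8% lower, and the median of 0.07 in this list was near that of all genes. Mrtfb, a cofactor of SRF, rose by 1.06 (edgeR adjusted p = 0.00276), Elk3, an SRF partner, by 1.45 (0.00284) and Mapk3, the kinase ERK1, by 0.80 (0.00323). Of 14 SRF and YAP targets, 3 were called higher and 2 lower (median 0.56), with Axl at 1.65 (edgeR adjusted p = 0.00384), Actb at 1.29 (0.00682) and Tpm1 at 0.68 (0.0101). Of 12 heat shock genes, 1 was called higher, Hspa8 (0.63, edgeR adjusted p = 0.0362), and 2 lower, Hspa1b (-1.16, 0.0437) and Dnajb1 (-0.75, 0.0617), with a median of 0.11. Hspa1b is nearly identical to Hspa1a, so its reads are uncertain. Of 10 glucocorticoid-responsive genes, 6 were called higher and 0 lower (median 0.85), with Tsc22d3 at 1.42 (edgeR adjusted p = 0.0034), Klf9 at 0.86 (0.00689) and Per1 at 0.75 (0.0686).

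**Figure D5:**
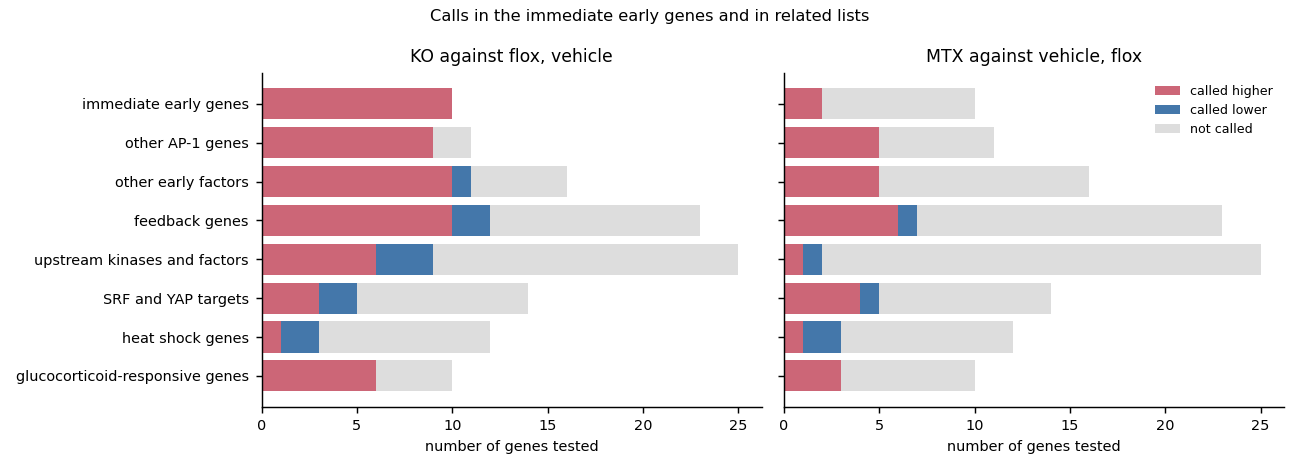
Bars give the number of genes tested in the 10 immediate early genes and in 7 related lists, split into called higher, called lower and not called, for KO against flox under vehicle (left) and MTX against vehicle in flox mice (right). On the left all 10 immediate early genes and 9 of 11 other AP-1 genes were called higher, and on the right 2 of 10 and 5 of 11.

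In KO MTX against flox MTX and in MTX against vehicle of KO mice, 0 genes of the 7 related lists were called by edgeR, as for all genes tested. At an unadjusted p below 0.05, 4 of 11 other AP-1 genes, 6 of 16 other early factors and 7 of 23 feedback genes were higher in KO MTX than in flox MTX, against 11.5% of all genes. At the same limit 0 of the AP-1 genes, 0 of the early factors and 2 of the feedback genes were lower, Dusp4 (-0.62) and Spry4 (-0.55). With MTX in flox mice, 8.09% of all genes were called higher and 16.1% lower. There the upstream list had 1 gene called higher and 1 lower, and the SRF and YAP targets had 4 and 1. The heat shock genes had 1 and 2 and the glucocorticoid-responsive genes 3 and 0. Tsc22d3, also known as GILZ, was the called gene of this last list with the lowest adjusted p (log2 fold change 1.33, edgeR adjusted p = 0.00618).

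The miRNAs of the deleted locus are shown with their seeds in capitals (bases 2 to 8), since a match to the seed in a 3′UTR is the usual sign of a target. Both arms of interest are also encoded at a second locus that the deletion leaves, and the mature sequences are those of RefSeq on GRCm38.p6, at chr2:38852741-38852763 (+) and chr2:38853845-38853868 (+).
mmu-miR-181a-5p: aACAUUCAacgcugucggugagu
mmu-miR-181b-5p: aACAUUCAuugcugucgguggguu
The complement of the shared seed, TGAATGT, was searched in the longest annotated 3′UTR of 9 of the 10 genes, with Egr1 not analysed here. It was found in 2 of 9 genes, Fos and Ccn1, or 22.2%, against 17.5% of 14983 genes tested. The sites of Fos (chr12:85477048-85477070, + strand) and Ccn1 (chr3:145647110-145647132, - strand) lie at base 600 of 815 and base 544 of 690 of their 3′UTRs.
Fos site: cgaggtggtcTGAATGTtctgac
Ccn1 site: gttttaagatTGAATGTtttttt
The other 7 genes, all higher in KO vehicle too, held no such letters in this window. The share among the 9 genes searched was thus near the background, although their 3′UTRs were shorter (median 755 bases against 1087 for all genes tested). The matches say nothing of whether these mRNAs are bound.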

How the data were processed

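RNA of white adipose tissue from 12 mice was sequenced, 1 library per mouse and 3 mice per group. Per the labels and the methods, the authors trimmed the reads (Trimmomatic 0.36), aligned them to GRCm38 (STAR 2.5.2b) and counted them per gene (featureCounts of Subread 1.5.2), and deposited raw read counts without normalization. The strand setting is not given in the sources used here, and the labels and the methods differ on the selection of RNA (polyA RNA or depletion of ribosomal RNA). Of the 49315 genes in the table, 99.3% carry a symbol.

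Tests on the counts were run with edgeR 4.0.16 under R 4.3.3 (TMM scaling, filterByExpr by group, 1 coefficient per group, glmQLFit and glmQLFTest over 12 libraries; common dispersion 0.100, 8 residual degrees of freedom). SEs were taken from the F statistic, and 95% intervals from the t distribution with the fit's total degrees of freedom. Exact permutation tests were two-sided. DESeq2 1.42.0, other scalings, filters, limits, a replicate block and each library left out in turn were alternatives. The procedure was tested on simulated data. The edgeR p-values weigh a group difference against the spread between mice within groups, estimated over all 12 libraries. The permutation p-values use only the libraries of the groups compared. Precision at low counts is least for Fosb (15 to 196 counts per library).

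The members, the lists and the rule for named genes were chosen with earlier results of these data known. All 10 members are named, with at most the 3 called genes of lowest adjusted p from each related list, and the 5 genes most like the members. Nr4a2 and Spry4 were named beyond this rule, after their values were seen. Gene positions are those of GENCODE M21 (GRCm38), and promoters and miRNAs those of RefSeq. The sources used here name no pairing of mice by replicate number. Libraries within a group differed beyond sampling noise (lowest chi-square per degree of freedom 14.1), so none was a duplicate.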

Additional observations from a re-analysis of the deposited data

How the results depend on the processing

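The 10 calls in KO against flox under vehicle became 6 at a log2 fold change of at least 1.5. The share of all genes at that limit was not counted. With any 1 library left out 8 to 10 were called, where 23.7% to 35.0% of all genes were called in either direction. In KO against flox under MTX, DESeq2 called 6 of the 10 (14.8% of all genes). Keeping genes of low counts gave 1 (2.53%), and requiring 10 counts in every library gave 2 (10.6%). With 1 library left out 0 to 8 were called, where 0.00% to 20.8% of all genes were called in either direction. The count was 8 without flox MTX replicate 2 and 1 without flox vehicle replicate 3. The share of all genes was also highest without flox MTX replicate 2 and next highest without flox vehicle replicate 3. In MTX against vehicle of flox mice, the 2 calls became 1 at an adjusted p below 0.05. They became 1 at a log2 fold change of at least 1.5, and the shares of all genes at these limits were not counted. Library-size scaling gave 1 (23.4% of all genes in either direction), and 10 counts in every library gave 1 (15.6%). The libraries of the comparison alone gave 0 (12.2%), and leaving out both libraries with the most epididymis RNA gave 1 (12.9%). With flox vehicle replicate 4 alone, the log2 fold changes of the 10 genes ran from -0.30 to 1.52. With 1 library left out 0 to 4 were called, where 11.7% to 30.9% of all genes were called in either direction. For MTX against vehicle of KO mice and for the interaction, 0 were called under every alternative with more than 1 library in each group. For MTX in KO mice most of these alternatives also called 0.00% of all genes, and the highest share was that of DESeq2. For the interaction 0.00% to 7.07% of all genes were called in either direction. These counts of 0 thus do not set the 10 genes apart from all genes. The cause of these shifts was not tested.

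Each library came from its own mouse, so libraries of the same replicate number share no animal. Residuals of the 12 same-number pairs correlated with a median of 0.035 (-0.273 to 0.254), against 0.011 for 42 other pairs. Which mice shared a litter, cage or batch is not given, and these values cannot tell. With the replicate number as a block, 9 of 10 genes were called in KO against flox under vehicle, where 27.2% of all genes were called in either direction. Under MTX 0 were called (0.00%), as for MTX against vehicle in flox mice (14.8%) and in KO mice (0.00%). In the interaction 0 were called (0.00%), and Jun was there at 0.04.

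Some signs turned, none of them of a called value. With library-size scaling Ier2 was at -0.13 for MTX in flox mice and Jun at 0.11 in the interaction. There Jun was also at 0.20 with flox vehicle replicate 4 alone and at 0.05 without flox vehicle replicate 3 and flox MTX replicate 1. With 1 library left out, KO against flox under MTX ranged from -0.15 to 1.34 for Fosb and from -0.75 to 0.58 for Ccn1. MTX in flox mice ranged from -0.22 to 0.10 for Jun, -0.12 to 0.60 for Egr1, -0.08 to 0.27 for Ier2 and -0.29 to 0.09 for Nr4a1. MTX in KO mice ranged from -0.24 to 0.16 for Fos, -1.32 to 0.08 for Fosb, -0.19 to 0.02 for Jun, -0.32 to 0.14 for Junb, -0.44 to 0.11 for Dusp1 and -0.08 to 0.10 for Zfp36. The interaction of Jun ranged from -0.20 to 0.12. Depth limited Fosb most, with 15 counts in its lowest library.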
